A study of Mus musculus with 23 samples.

Results

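Severe phlebotomy-induced anemia (sPIA) was compared with no bleeding (NBC, non-bled controls) in the hippocampus of female mouse pups on postnatal day 14. The comparison took 8 of the 23 libraries of the study, 4 sPIA females and 4 NBC females, chosen by the recorded sex and anemia level alone. All genes of the count table were considered, and 15475 passed a low-count filter. The sPIA pups lost blood from the facial vein from postnatal day 3, in a pair of draws a day of 5.25 µl per g of body weight, until the haematocrit neared 18%. They were then bled daily at 3.5 µl per g until they were killed. NBC pups had only a needle prick at the back of the neck. No strain, transgene or drug is named for any group, and pups were assigned to anemia levels at random. The sources used here describe RNA of 4 females per group, and each library was taken as 1 pup; whether pups shared a litter is not stated, and p-values measure the spread between these libraries. Moderately anemic females (mPIA, 4 libraries, bled in the same way toward a haematocrit of 25%), NBC males (3 libraries, numbered 2 to 4) and sPIA males (4 libraries) are used only to set values beside those of the females.

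Anemia lowers the delivery of oxygen and, since each draw removes haemoglobin, the iron that a growing pup has to spare. When oxygen is short, the hypoxia-inducible factors (HIF) escape breakdown and switch on genes for blood vessel growth, glucose breakdown and oxygen-sparing metabolism. Cells short of iron keep the messenger RNA of the transferrin receptor from decay. The hippocampus is a memory structure that is building dendrites, synapses and vessels at this age, and it is among the brain regions that early iron deficiency is known to affect.

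Library totals were 15.2 to 18.5 M counts (M, mega-counts) in NBC females and 18.0 to 21.5 M in sPIA females, with means of 17.1 ± 1.5 M and 19.8 ± 1.63 M (SD, n = 4 each). These totals did not differ past the threshold (exact two-sided permutation test, p = 0.0857, where 0.0286 is the smallest p that 4 against 4 can give). Slc17a7, a vesicular glutamate transporter of excitatory neurons in the hippocampus and in the cortex beside it, lay at 1608 to 1903 counts per mega-count (CPM) in NBC and 1625 to 1882 CPM in sPIA females. Prox1, the defining factor of dentate granule neurons, lay at 60.7 to 92.9 CPM and 81.4 to 122 CPM, and Wfs1, a marker of CA1 pyramidal neurons, at 145 to 183 CPM and 69.3 to 153 CPM; neither passed (adjusted p = 0.115 and 0.122). How much bordering tissue a sample held is not known. Ttr, an abundant transcript of the choroid plexus that lies against the hippocampus, differed by orders of magnitude within both groups. It lay at 43.03, 2025, 37.4 and 21.7 CPM in NBC females 1 to 4 and at 106, 1324, 2.29 and 28.6 CPM in sPIA females 1 to 4. Pups varied around their group mean with a biological coefficient of variation of 8.65% among NBC and 13.3% among sPIA females.

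The library codes in the labels coincide with the comparison. Codes of NBC and mPIA females begin with digits, and codes of sPIA females, NBC males and sPIA males begin with P. The labels do not say what the codes stand for, and in females severe anemia and the code series cannot be told apart. Some codes also share their leading number. NBC females 1 and 2 share one with each other and with mPIA females 1 and 2, and NBC females 3 and 4 each share one with the mPIA female of the same number. The sPIA females have a different number each, which for libraries 2 to 4 is also that of a male library. What the number stands for is not stated either, and the tests take no account of it. Leaving out NBC female 1 or 2, so that each number occurs once among the 8 libraries, gave 1421 and 1791 calls between sPIA and NBC females. A measure of the libraries also moved with the group. Spearman's rho across genes was computed between GC content and how far each gene of a library lay from its mean over the 8; it was 0.136 to 0.527 in NBC females and -0.477 to -0.013 in sPIA females. The difference in mean rho was -0.569 (exact permutation test, p = 0.0286, the smallest possible here, and 0.0429 after Benjamini-Hochberg adjustment over 3 library measures). Without NBC female 1 it was -0.495 (exact p = 0.0571) and without NBC female 2 it was -0.55 (exact p = 0.0571). Genes are not independent replicates, and these rho values describe the libraries.

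Of the 15475 genes tested, 2472 (16%) passed at an adjusted p under 0.05 by edgeR's quasi-likelihood test, 1256 higher (8.12%) and 1216 lower (7.86%) in sPIA females. The counts of called members in the gene lists below are to be read beside these shares. Most of the changes were small. The median size among the called genes was 0.35 on the log2 scale, 357 changed by at least 1.5-fold and 93 by at least 2-fold. The groups did not overlap for 3251 genes (21%), with all sPIA libraries above all NBC libraries for 1524 genes (9.85%) and below them for 1727 (11.2%). Without NBC female 1 the count of called genes was 1421, and without sPIA female 3 it was 1546.

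The calls followed the GC content of the transcripts. When the genes were split by GC content into 5 bins of about equal size, 696 in the lowest bin were higher and 36 lower in sPIA females, while in the highest bin 23 were higher and 572 lower. After each library's own trend with GC content and transcript length had been removed (the GC-corrected fit), 1174 genes were called, 542 higher and 632 lower, and the same bins held 130 higher and 143 lower, and 88 higher and 118 lower. A gene is called steady here when it passed in the first fit, in the GC-corrected fit, in a fit of only the 8 libraries and in each of the 8 fits that left out a pup, always in the same direction. There were 642 steady genes (4.15%), 328 higher (2.12%) and 314 lower (2.03%).

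**Figure D1:**
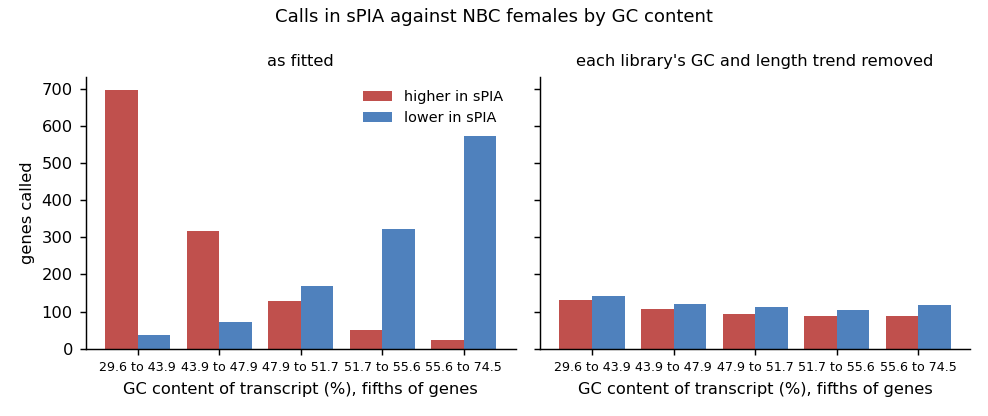
Number of genes called higher (red) or lower (blue) in sPIA against NBC females in 5 bins of about equal size by the GC content (%) of the longest transcript, as fitted (left) and after each library's trend with GC content and length was removed (right). On the left the lowest bin holds 696 higher and 36 lower calls and the highest bin 23 and 572; on the right the lowest bin holds 130 and 143 and the highest 88 and 118.

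The same fit gave very different numbers of calls in other comparisons, which all share libraries with this one except that between sPIA and NBC males. Between sPIA and mPIA females 2499 genes (16.1%) passed, and between NBC females and NBC males 1570 (10.1%). In both of these the code series differ. Where the code series was the same, few genes passed. There was 1 (0.00646%) between mPIA and NBC females, there were 14 (0.0905%) between sPIA females and NBC males, a comparison across sex, and 30 (0.194%) between sPIA and NBC males. Between mPIA and NBC females only 55 of 15475 genes had an unadjusted p under 0.05 in edgeR. That is fewer than this threshold gives by chance, so the test was overly strict there. Its count of 1 is not on the same footing as the other counts. Some of these counts moved with the setting. There were 1431 between sPIA and mPIA females and 643 between NBC females and NBC males in the GC-corrected fit, and 414 in the latter without NBC male 4. DESeq2 called 100 genes between sPIA females and NBC males and 155 between sPIA and NBC males, where edgeR gave 4 without NBC male 4 and 238 without NBC male 2. Levels in mPIA females, NBC males or sPIA males are given beside some of the genes below. Where they are left out, the text does not show whether NBC males lay near the NBC or the sPIA females.

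**Figure D2:**
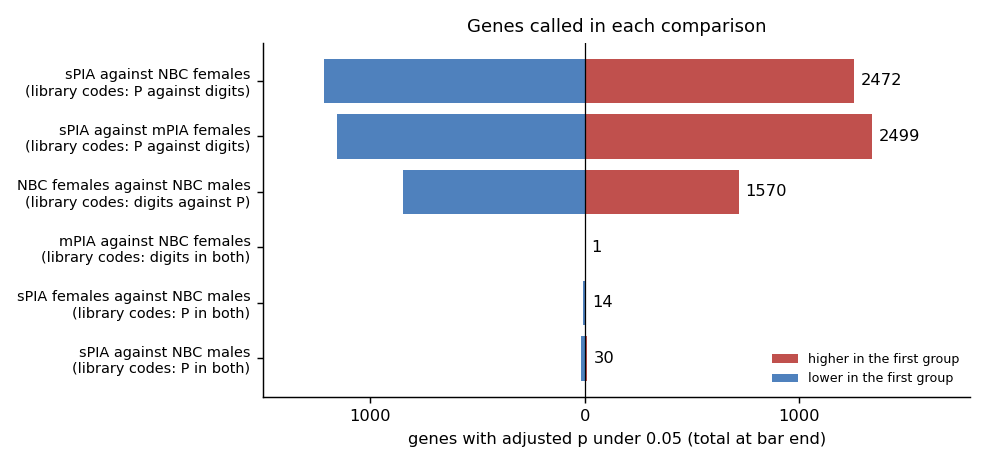
Genes called at an adjusted p under 0.05 in 6 comparisons (x axis, number of genes; red to the right is higher and blue to the left lower in the first group named), with the first characters of the library codes in each group. The 3 comparisons between code series have 2472, 2499 and 1570 calls, and the 3 within a code series have 1, 14 and 30. In the comparison with 1 call, only 55 genes had an unadjusted p under 0.05 in edgeR, fewer than chance gives.

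Among genes of the oxygen response, the clearest change was that of Adm, which encodes adrenomedullin, a vasodilator peptide and a classical target of HIF (chromosome 7, 110627661 to 110629820, plus strand, mm10). Adm lay at 1.60, 1.24, 1.14 and 1.56 CPM in the NBC females and at 4.99, 2.85, 6.35 and 4.66 CPM in the sPIA females. All sPIA libraries lay above all NBC libraries. The log2 change was 1.77 (SE 0.24, adjusted p = 3.5e-05). The mPIA females, which share the code series of the controls, averaged 3.63 ± 0.748 CPM (SD, n = 4), and NBC males 2.49 ± 0.324 CPM (SD, n = 3).

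Of 33 measured hypoxia and HIF targets, 5 rose and 3 fell, with a median log2 change of 0.107 against 0 over all genes tested. Vegfa, the main growth factor of blood vessels (chromosome 17, 46016993 to 46032369, minus strand), rose from 98.1, 92.3, 85.1 and 82.7 CPM to 128, 103, 131 and 145 CPM, a log2 change of 0.50 (SE 0.09, adjusted p = 0.000439). Stc2, a secreted glycoprotein induced by stress, rose from 2.41 ± 0.744 to 4.63 ± 0.393 CPM (SD, n = 4 each), with a log2 change of 0.93. These were steady, and their groups did not overlap. P4ha1, a subunit of the enzyme that hydroxylates collagen prolines, rose by 0.33 (SE 0.07, adjusted p = 0.00299) and had an adjusted p of 0.0518 in the GC-corrected fit. Bnip3, which promotes the removal of mitochondria, rose by 0.24 (SE 0.07, adjusted p = 0.0308), and lost the call in the GC-corrected fit (adjusted p = 0.215) and without NBC female 1 (0.099), NBC female 3 (0.0742) or sPIA female 3 (0.186).

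The members that fell included other known targets. Ndrg1, a growth arrest gene induced by hypoxia, fell from 44.2 ± 4.81 to 31.4 ± 6.64 CPM (SD, n = 4 each), with a log2 change of -0.49 (adjusted p = 0.00954), although sPIA female 2 at 40.2 CPM lay above NBC female 4 at 37.62 CPM. Bhlhe40, a repressor that works in the hypoxia and circadian responses, fell by 0.32 on the log2 scale (adjusted p = 0.00879), and without NBC female 1 it had a change of -0.26 (adjusted p = 0.06). Eno1, a glycolytic enolase, fell from 6.46 ± 1.3 to 3.19 ± 0.45 CPM (SD, n = 4 each). Its level is uncertain because near-identical copies of the gene can take its reads, and NBC males, at 2.01 ± 0.754 CPM (SD, n = 3), lay lower still.

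Of 10 HIF subunits and oxygen sensors, 1 rose and 1 fell. Hif1a, the oxygen-regulated subunit, rose by 0.31 (SE 0.07, adjusted p = 0.00593) from 103 ± 10.3 to 127 ± 10.3 CPM (SD, n = 4 each). NBC males were at 128 ± 3.19 CPM (SD, n = 3), and the GC-corrected change was 0.12 (adjusted p = 0.207). Arnt2, a neuronal partner of HIF, fell by 0.29 on the log2 scale (adjusted p = 0.0283). Its adjusted p was 0.0509 in the GC-corrected fit and 0.0548 to 0.0853 without NBC female 1, 2 or 4 or sPIA female 1 or 3. In the GC-corrected fit neither of these passed, and 2 other members were called higher, named here after their values were seen: Epas1, the HIF-2 alpha subunit, by 0.24 (adjusted p = 0.045), and Egln2, a prolyl hydroxylase that marks HIF for breakdown, by 0.25 (adjusted p = 0.0223). Of the 7 measured genes for adrenomedullin and its receptor parts, 2 rose and 1 fell. Only those 2 had a log2 change above 0, and the median of the 7 was -0.136. Calcrl, the receptor's membrane protein, rose by 0.56 on the log2 scale (adjusted p = 0.0008) from 13.9 ± 1.03 to 20.5 ± 2.24 CPM (SD, n = 4 each), with NBC males at 18.98 ± 2.34 CPM (SD, n = 3) and a GC-corrected change of 0.30 (adjusted p = 0.0447). Ramp3, an accessory protein that tunes that receptor, lay at 2.21 to 4.22 CPM in NBC and 1.01 to 2.08 CPM in sPIA females. Its log2 change was -1.15 (adjusted p = 0.0203), and the call was lost in the GC-corrected fit (adjusted p = 0.0828) and without NBC female 3 (0.0906) or sPIA female 1 (0.0504), 3 (0.0719) or 4 (0.0547).

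The promoters of the HIF targets that rose were read for the core of the hypoxia response element, ACGTG, on either strand, in the 250 bases before the RefSeq start (GRCm38.p6). The 3 windows printed, 5′ to 3′ along the gene, are those of the target with the largest rise and of a pair that carries the core, which is in capitals; where both strands match, the capitals run together.

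Adm, chr7:110627407-110627656, plus strand: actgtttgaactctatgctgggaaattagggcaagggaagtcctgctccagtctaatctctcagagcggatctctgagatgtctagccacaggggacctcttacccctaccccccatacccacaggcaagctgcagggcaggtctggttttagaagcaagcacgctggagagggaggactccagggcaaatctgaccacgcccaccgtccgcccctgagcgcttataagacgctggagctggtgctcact
P4ha1, chr10:59323046-59323295, plus strand: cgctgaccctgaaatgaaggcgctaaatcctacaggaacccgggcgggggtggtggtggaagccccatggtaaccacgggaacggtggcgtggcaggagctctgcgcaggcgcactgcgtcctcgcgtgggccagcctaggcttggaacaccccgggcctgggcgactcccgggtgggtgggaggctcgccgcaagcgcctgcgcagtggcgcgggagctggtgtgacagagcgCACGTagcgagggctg
Bnip3, chr7:138909507-138909756, minus strand: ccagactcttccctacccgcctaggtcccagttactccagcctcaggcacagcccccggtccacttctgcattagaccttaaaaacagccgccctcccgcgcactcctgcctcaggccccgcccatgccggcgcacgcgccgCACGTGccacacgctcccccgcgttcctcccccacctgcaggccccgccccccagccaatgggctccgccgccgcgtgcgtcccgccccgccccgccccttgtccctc

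The core was in 3 of the 6 windows of the 5 HIF targets that rose, which besides P4ha1 and Bnip3 include the second of the windows listed for Vegfa. It was in 21 of 41 windows of the whole list and in 16.6% of all 32851 windows. Among windows of genes called higher the share was 21.9%, among those of genes called lower 19.9%, and among those of all genes tested 20.6%. The Adm and Stc2 windows do not hold these letters. The GC content of the windows shown was 56.8% for Adm, 69.6% for P4ha1 and 72.4% for Bnip3.

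Several genes of blood vessels rose in sPIA females, and a few fell. Of 21 measured genes of VEGF and angiopoietin signalling, 6 rose and 1 fell (median log2 change 0.102), and of 31 endothelial and blood-brain barrier genes, 8 rose and 1 fell (0.154); in the GC-corrected fit 5 rose and 0 fell in the first list and 5 rose and 1 fell in the other. In bulk RNA, more endothelial cells and more RNA per endothelial cell cannot be told apart. Kdr, the main VEGF receptor (chromosome 5, 75932827 to 75978458, minus strand), lay at 42.9, 40.5, 41.3 and 46.7 CPM in NBC and at 54.8, 61.7, 67.7 and 70.6 CPM in sPIA females. Its log2 change was 0.57 (SE 0.08, adjusted p = 5.43e-05), and mPIA females averaged 51.6 ± 3.67 CPM (SD, n = 4). Flt1, the receptor that binds VEGF with high affinity and little signalling, rose by the same 0.57 (SE 0.12, adjusted p = 0.00327), from 38.1 ± 4.31 to 56.4 ± 10.1 CPM (SD, n = 4 each). Angpt2, which loosens vessel walls for sprouting, rose by 0.73 (adjusted p = 0.0155), a call that was lost without sPIA female 3 (0.0686). Nrp1, a co-receptor of VEGF, rose by 0.30 (adjusted p = 0.00933) and had a GC-corrected change of 0.15 (adjusted p = 0.318), with 0.0543 without sPIA female 3.

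Apelin and its receptor moved apart. Apln, the peptide made by sprouting vessels, rose by 0.43 (adjusted p = 0.0376), and lost the call without NBC female 1 (0.0807), 3 (0.123) or 4 (0.0808) and without sPIA female 3 (0.211) or 4 (0.0932). The Apln call was also lost in the fit of only the 8 libraries (0.1175) and by limma-voom (0.0595). Aplnr fell by 0.64 on the log2 scale (adjusted p = 0.0358), from 12.4 ± 1.04 to 7.92 ± 1.38 CPM (SD, n = 4 each). Its adjusted p was 0.0689 in the GC-corrected fit and 0.0594 to 0.0993 without NBC female 1, 3 or 4 or sPIA female 1, 2 or 4. In mPIA females, Aplnr was at 8.16 ± 1.32 CPM (SD, n = 4).

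The largest rise among endothelial genes was that of Vwf, which encodes the clotting protein von Willebrand factor (chromosome 6, 125546774 to 125686679, plus strand). It lay at 29.3, 15.53, 26.9 and 27.7 CPM in NBC and at 51.6, 62.1, 81.5 and 64.6 CPM in sPIA females, a log2 change of 1.39 (SE 0.26, adjusted p = 0.00163). NBC males were at 28.4 ± 11.7 CPM (SD, n = 3) and sPIA males at 56.5 ± 10.5 CPM (SD, n = 4), so for this gene the male controls lay near the female controls. Eng, a co-receptor for TGF-beta on endothelium, rose by 0.45 (adjusted p = 0.00417) with NBC males at 36.9 ± 3.39 CPM (SD, n = 3), beside 37.5 ± 4.76 CPM in NBC and 51.1 ± 6.68 CPM in sPIA females (SD, n = 4 each). Lef1, a transcription factor of Wnt signalling that brain endothelium and thalamus share, rose by 0.91 (adjusted p = 0.00462). Mfsd2a, the transporter that carries omega-3 fatty acids across the blood-brain barrier, fell by 0.49 on the log2 scale (adjusted p = 0.0027), with 59.03 ± 3.64 CPM in NBC and 42.1 ± 4.44 CPM in sPIA females (SD, n = 4 each).

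Of the general endothelial markers, Flt1 rose, as given above, while Cldn5 and Pecam1 did not pass. Cldn5, a tight junction protein, was at 40.9 ± 4.03 CPM in NBC and 40.4 ± 3.16 CPM in sPIA females (SD, n = 4 each; log2 change -0.02, SE 0.12). Pecam1, an adhesion molecule of all endothelium, differed by 0.15 on the log2 scale (SE 0.13, adjusted p = 0.457). Of 18 genes of pericytes and smooth muscle, 1 rose. It was Abcc9, a subunit of the ATP-sensitive potassium channel of pericytes, with a log2 change of 0.65 (adjusted p = 0.0015). Among cytokines and chemokines 3 of 24 rose and 2 fell, beside 8.12% higher and 7.86% lower over all genes. In the GC-corrected fit 3 rose and 0 fell. Cxcl12, a chemokine of vessels and meninges that guides migrating cells (chromosome 6, 117168535 to 117181367, plus strand), was at 70.4, 64.8, 71.9 and 61.4 CPM in NBC and at 127, 103, 99.1 and 121 CPM in sPIA females. The groups were well apart, with a log2 change of 0.74 (SE 0.12, adjusted p = 0.000309). NBC males were at 76.5 ± 14.31 CPM (SD, n = 3). Of 28 collagen and meningeal genes 3 rose and 2 fell, beside the same shares over all genes. Col4a1, a collagen of the vessel basement membrane, rose by 0.43 (adjusted p = 0.0123). Its partner Col4a2 rose by 0.39 (adjusted p = 0.0164), with 0.0609 without NBC female 4 and 0.0669 without sPIA female 4.

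**Figure D3:**
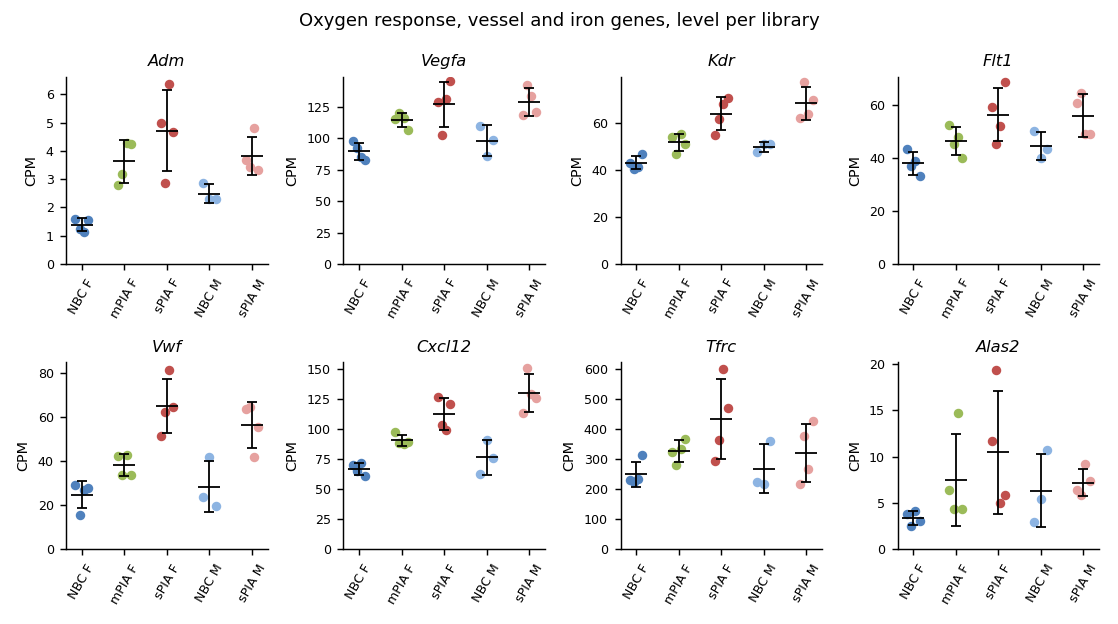
Level in CPM (y axis, from 0) of 8 genes of the oxygen response, vessels and iron in each library of NBC, mPIA and sPIA females (F) and NBC and sPIA males (M); bars are the mean and SD. For Adm, Vegfa, Kdr, Flt1, Vwf, Cxcl12 and Alas2 all sPIA females lie above all NBC females, while Tfrc overlaps at 294 and 312 CPM.

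Of 24 measured genes of iron uptake, storage and export, 1 rose and 0 fell (median log2 change 0.061), beside 8.12% higher and 7.86% lower over all genes. That gene was Tfrc, the transferrin receptor (chromosome 16, 32608920 to 32632794, plus strand), at 230, 222, 232 and 312 CPM in NBC and 294, 364, 600 and 469 CPM in sPIA females. NBC female 4 lay above sPIA female 1, so the groups overlapped. The log2 change was 0.79 (SE 0.25, adjusted p = 0.0369). The call was lost in the GC-corrected fit (0.56, adjusted p = 0.171) and without NBC female 1 (0.0964), 2 (0.0947) or 3 (0.0837) or sPIA female 3 (0.145) or 4 (0.0827). The Tfrc call was also lost in the fit of only the 8 libraries (0.072). In the GC-corrected fit 2 other members were called higher, named here after their values were seen: Pcbp1, an iron chaperone, by 0.32 (adjusted p = 0.000338), and Ftl1, the ferritin light chain, by 0.23 (adjusted p = 0.011). The mean Tfrc level of mPIA females was 326 ± 35.6 CPM (SD, n = 4) and that of NBC males 268 ± 80.7 CPM (SD, n = 3).

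Of 14 genes of heme synthesis and breakdown, 2 rose and 0 fell. Only 3 of the 14 had a log2 change above 0, and the median was -0.121. Cpox, an enzyme late in heme synthesis, rose by 0.43 (adjusted p = 0.00233) from 40.1 ± 3.44 to 54.05 ± 3.05 CPM (SD, n = 4 each), and NBC males were at 53.5 ± 6.53 CPM (SD, n = 3). Alas2, the first enzyme of heme synthesis in red cell precursors, was at 3.84, 2.48, 4.17 and 3.06 CPM in NBC and 11.7, 19.3, 4.99 and 5.84 CPM in sPIA females. Its log2 change was 1.63 (SE 0.48, adjusted p = 0.0276), and the call was lost without NBC female 1 (0.0605), 2 (0.0805) or 4 (0.0627) or sPIA female 2 (0.106). The Alas2 call was also lost in the fit of only the 8 libraries (0.0534) and by limma-voom (0.0593). Alas2 and Tfrc were also the 2 members called of 8 measured blood cell genes, whose summed level was 243 to 335 CPM in NBC and 328 to 621 CPM in sPIA females. Of 10 haemoglobin rows, 9 are listed at 0 in every library and the other reached at most 5 counts, so the defining transcripts of red cells do not show how much blood a sample held. The part of blood in these results was not tested. Slc2a1, the glucose transporter of the blood-brain barrier, did not pass (log2 change 0.11, SE 0.12, adjusted p = 0.626).

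Subunits of oxidative phosphorylation, the machinery that makes ATP in mitochondria, and ribosomal proteins were mostly lower in sPIA females where they passed in the first fit. Of 48 nuclear-encoded subunits of oxidative phosphorylation, 14 fell and 1 rose, with a median log2 change of -0.159, and 10 fell and 0 rose in the GC-corrected fit (median -0.112). Atp5g1, a subunit of the rotor of ATP synthase, was at 114, 117, 105 and 111 CPM in NBC and at 84.0, 76.6, 66.0 and 67.9 CPM in sPIA females (log2 change -0.60, SE 0.10, adjusted p = 0.00029). NBC males, at 78.8 ± 13.6 CPM (SD, n = 3), lay close to the sPIA females. Ndufa4, a small subunit of the respiratory chain, fell by 0.31 on the log2 scale (adjusted p = 0.000716) and Cox5b, of complex IV, fell by 0.37 (adjusted p = 0.0008). For Ndufa4, NBC males were at 195 ± 15.1 CPM (SD, n = 3), beside 249 ± 11.6 CPM in NBC and 200.5 ± 8.6 CPM in sPIA females (SD, n = 4 each). For Cox5b, NBC males were at 132 ± 9.19 CPM (SD, n = 3), beside 151.6 ± 10.99 and 117.5 ± 14.15 CPM (SD, n = 4 each). Cox7c, also of complex IV, was the member that rose, by 0.34 (adjusted p = 0.0136), and its adjusted p was 0.219 in the GC-corrected fit, 0.0582 without NBC female 1 and 0.0517 without NBC female 3. The median for the list between sPIA females and NBC males, which share the P codes, was -0.032.

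Of 56 cytosolic ribosomal protein genes, 18 fell and 2 rose (median -0.138), and in the GC-corrected fit 5 fell and 5 rose (median -0.069). Rps12, a protein of the small subunit, fell from 37.9 ± 6.74 to 22.1 ± 1.94 CPM (SD, n = 4 each), with a log2 change of -0.78 (adjusted p = 3.5e-05). NBC males were at 23.5 ± 1.49 CPM (SD, n = 3). Rpl19, of the large subunit, fell by 0.61 on the log2 scale (adjusted p = 0.00468). Its NBC male level was 27.6 ± 3.1 CPM (SD, n = 3), beside 37.2 ± 3.78 CPM in NBC and 24.3 ± 5.0 CPM in sPIA females (SD, n = 4 each). Ribosomal protein genes have many processed copies in the genome, so their counts are uncertain where reads map to several places. Of 24 glycolysis genes 2 rose and 4 fell, beside 8.12% higher and 7.86% lower over all genes. In the GC-corrected fit 3 rose and 1 fell. Pfkl, a phosphofructokinase, rose by 0.27 (adjusted p = 0.0214), with 0.0825 without NBC female 3, 0.0679 without NBC female 4 and 0.074 without sPIA female 1. Ldhb, a lactate dehydrogenase subunit, fell by 0.27 (adjusted p = 0.00855), and its GC-corrected change was -0.15 (adjusted p = 0.182).

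Several chaperones of the endoplasmic reticulum rose. Of 26 genes of the unfolded protein and integrated stress response, 7 rose and 0 fell, beside 8.12% higher and 7.86% lower over all genes by edgeR's test. In the GC-corrected fit 5 rose and 0 fell. In the first fit 12 had an unadjusted p under 0.05 in either direction, and limma-voom and DESeq2 each called 7. Canx, the calnexin gene, lay at 392 to 420 CPM in NBC and at 538 to 547 CPM in sPIA females, a log2 change of 0.41 (SE 0.06, adjusted p = 4.52e-05). NBC males lay at 555 ± 46.9 CPM (SD, n = 3), and the GC-corrected change was 0.25 (adjusted p = 0.001). Hsp90b1 and Pdia4, a chaperone and a disulfide isomerase of the same compartment, rose by 0.42 and 0.41 on the log2 scale (adjusted p = 0.000683 and 0.00265). In NBC males they lay at 517 ± 79.2 and 61.8 ± 5.52 CPM (SD, n = 3), beside 507 ± 14.91 and 58.97 ± 4.81 CPM in sPIA females (SD, n = 4). Hspa5, the chaperone BiP, rose by 0.35 (adjusted p = 0.0191), and lost the call in the GC-corrected fit (0.115) and without NBC female 1 (0.0546) or 4 (0.0745) or sPIA female 3 (0.0685) or 4 (0.0586). Of 24 antioxidant and ferroptosis genes 2 rose and 4 fell, beside the same shares over all genes, and in the GC-corrected fit 2 rose and 1 fell. Acsl4, which loads polyunsaturated fats into membranes and favours ferroptosis, rose by 0.51 (adjusted p = 0.000238), and by 0.26 in the GC-corrected fit (adjusted p = 0.00842). Gpx4, the peroxidase that guards against it, fell by 0.34 (adjusted p = 0.00706), with a GC-corrected change of -0.11 (adjusted p = 0.478). In NBC males Acsl4 was at 161 ± 9.35 CPM and Gpx4 at 73.6 ± 6.85 CPM (SD, n = 3). In sPIA females they were at 172.5 ± 19.1 and 71.7 ± 8.62 CPM (SD, n = 4).

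Of 28 iron- and oxygen-dependent dioxygenases, enzymes that use both as cofactors, 5 rose and 0 fell (9 had an unadjusted p under 0.05 in edgeR, and limma-voom and DESeq2 each called 6), and in the GC-corrected fit 2 rose. Kdm7a, a histone demethylase, rose by 0.69 on the log2 scale (adjusted p = 2.79e-05), with 66.7 ± 2.41 CPM in NBC and 108 ± 10.4 CPM in sPIA females (SD, n = 4 each), and with NBC males at 99.6 ± 13.21 CPM (SD, n = 3). Its GC-corrected change was 0.42 (adjusted p = 0.00106).

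Among the largest steady falls, Nxph3 and Cplx3 belong to the list of deep cortical and subicular neurons, whose tissue borders the hippocampus. Nxph3, which encodes the synaptic ligand neurexophilin 3 (chromosome 11, 95509845 to 95514570, minus strand), was at 34.4, 9.71, 26.5 and 25.4 CPM in NBC and at 1.86, 3.04, 1.96 and 4.88 CPM in sPIA females. NBC female 2, which was high in Ttr, was the lowest control and still lay above all sPIA libraries. The log2 change was -3.04 (SE 0.60, adjusted p = 0.00254). mPIA females averaged 29.9 ± 2.21 CPM (SD, n = 4), NBC males 12.4 ± 7.63 CPM (SD, n = 3) and sPIA males 13.7 ± 9.05 CPM (SD, n = 4), and the male libraries ranged from 2.38 CPM in sPIA male 3 to 23.2 CPM in sPIA male 4.

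Nts, the neuropeptide neurotensin, was at 26.6, 9.38, 25.2 and 22.1 CPM in NBC and at 1.49, 5.22, 1.91 and 2.53 CPM in sPIA females (log2 change -2.89, SE 0.59, adjusted p = 0.00337). NBC female 2 was again the lowest control. Cplx3, a complexin of deep cortical subplate neurons, fell from 6.08 ± 2.95 to 1.29 ± 0.298 CPM (SD, n = 4 each; log2 change -2.23, adjusted p = 0.00389). Prph, the intermediate filament peripherin, fell by 2.11 on the log2 scale, Vwc2l, a secreted BMP-pathway protein, fell by 1.94, and Tekt5, a tektin, fell by 2.15. Klhl1, an actin-binding protein of neurons, fell by 1.73 and Tox, a nuclear HMG-box factor, fell by 1.61. In sPIA females Cplx3 lay at 0.87 to 1.52 CPM, Tekt5 at 1.12 to 2.51 CPM and Klhl1 at 0.159 to 1.69 CPM, so all of them rest on few reads there. Adcyap1, the neuropeptide PACAP, fell by 1.57, Rbp4, the retinol carrier, fell by 1.47, Adamts16, a secreted protease, fell by 1.41 and Amn, which encodes amnionless, a part of the vitamin B12 uptake receptor, fell by 1.35. All of these were steady, with no overlap between the groups. Rxfp1, a relaxin receptor, and Tshz2, a zinc finger protein of subicular neurons, fell by 2.93 and 2.51 on the log2 scale (adjusted p = 0.0207 and 0.0178) with overlap. Tshz2 was at 20.4 CPM in NBC female 2 and 21.6 CPM in sPIA female 2. Rxfp1 lost its call without NBC female 1 (0.0645) or sPIA female 3 (0.0706), and Tshz2 without NBC female 1 (0.0541), sPIA female 3 (0.0591) or sPIA female 4 (0.0545). Rxfp1 also lost its call in the fit of only the 8 libraries (0.0601).

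Of the whole list of 28 deep cortical and subicular genes, 6 fell and 2 rose, with a median log2 change of -0.06, and the summed level was 1581 to 1722 CPM in NBC and 1320 to 1511 CPM in sPIA females. Fezf2, a master factor of deep-layer projection neurons (chromosome 14, 12342094 to 12348189, minus strand), was at 54.1, 48.8, 51.3 and 44.5 CPM in NBC and at 24.7, 26.2, 19.6 and 27.2 CPM in sPIA females, a log2 change of -1.03 (SE 0.14, adjusted p = 3.94e-05). Nr4a2, a nuclear receptor of subplate neurons, fell from 77.1 ± 10.9 to 41.2 ± 2.77 CPM (SD, n = 4 each). Hs3st4, a heparan sulfate sulfotransferase of the same layers, rose by 0.42 (adjusted p = 0.000694). Tle4 and Tbr1, also among the defining genes of deep cortex, did not pass. Tle4 was at 65.3 ± 7.7 and 63.1 ± 3.02 CPM (SD, n = 4 each, log2 change -0.05, SE 0.08). Tbr1 was at 54.3 ± 13.9 and 68.4 ± 28.5 CPM (SD, n = 4 each, log2 change 0.33, SE 0.29). The level of Foxp2, a further defining gene, is not given here. The part of tissue dissected beside the hippocampus was not tested, and in bulk RNA fewer cells and less RNA per cell cannot be told apart.

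Several peptides of inhibitory neurons were lower in sPIA females, and the enzymes that make their transmitter did not pass. Of 35 interneuron peptides and subtype markers, 9 fell and 2 rose (median -0.214), and in the GC-corrected fit 8 fell and 0 rose. Sst, the peptide somatostatin (chromosome 16, 23889573 to 23890958, minus strand), was at 185, 183, 172 and 158 CPM in NBC and at 59.4, 92.7, 76.7 and 70.3 CPM in sPIA females. The log2 change was -1.22 (SE 0.13, adjusted p = 1.53e-05). Npy, neuropeptide Y, fell from 41.7 ± 1.28 to 25.2 ± 4.79 CPM (SD, n = 4 each; log2 change -0.73, adjusted p = 0.00101). Tac1, the substance P precursor, fell by 0.89, Crhbp, which binds corticotropin-releasing hormone, by 0.79, Lamp5, a marker of neurogliaform cells, by 0.62, and Slc32a1, the vesicular GABA transporter, by 0.46 on the log2 scale, and these 4 were steady. The GC-corrected change of Slc32a1 was -0.24 (adjusted p = 0.0272). Gad1 and Gad2, the enzymes that make GABA, did not pass. Gad1 was at 334 ± 9.81 and 332 ± 27.8 CPM (SD, n = 4 each; log2 change -0.01, SE 0.07), and Gad2 had a log2 change of 0.01 (SE 0.07).

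**Figure D4:**
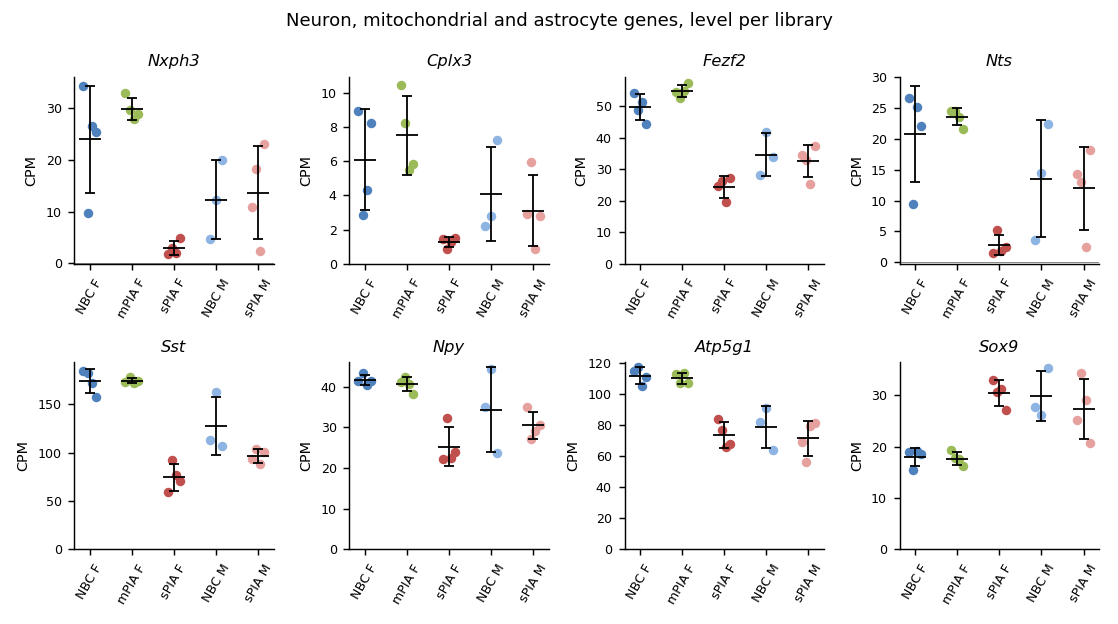
Level in CPM (y axis, from 0) of 8 genes in each library of NBC, mPIA and sPIA females (F) and NBC and sPIA males (M); bars are the mean and SD. All sPIA females lie below all NBC females for Nxph3, Cplx3, Fezf2, Nts, Sst, Npy and Atp5g1 and above them for Sox9, and the male groups overlap each other in each panel except Sst.

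Markers of the hippocampus's own excitatory neurons went both ways. Of 33 subfield genes 6 rose and 4 fell (median 0.15; 4 and 4 in the GC-corrected fit), with summed levels of 7229 to 7980 CPM in NBC and 7863 to 8760 CPM in sPIA females. Neurod1, a factor of new granule neurons (chromosome 2, 79452521 to 79456751, minus strand), rose by 0.81 on the log2 scale (adjusted p = 0.000144), with 40.4 ± 4.61 CPM in NBC and 70.9 ± 10.9 CPM in sPIA females (SD, n = 4 each) and 52.9 ± 11.31 CPM in NBC males (SD, n = 3). Cpne4, a calcium-binding copine, rose by 0.59 (adjusted p = 0.0036). Pou3f1, a POU factor of CA1 pyramidal neurons, fell from 50.02 ± 2.7 to 28.6 ± 7.54 CPM (SD, n = 4 each; log2 change -0.81, adjusted p = 0.000148). Neurod6, a factor of pyramidal neurons, rose by 0.40 (adjusted p = 0.0181) and lost the call in the GC-corrected fit (0.102) and without NBC female 1 (0.0715) or sPIA female 3 (0.0826).

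Activity-regulated genes did not share a direction. Of 30 immediate early genes 5 rose and 5 fell (median log2 change -0.162), and in the GC-corrected fit 1 rose and 2 fell (median -0.03). Klf10, a zinc finger repressor, rose by 0.41 (adjusted p = 0.000793) and Fosl2, a subunit of the AP-1 factor, fell by 0.35 on the log2 scale (adjusted p = 0.00684). Nr4a1, a nuclear receptor induced by activity, fell from 56.9 ± 5.41 to 37.5 ± 5.52 CPM (SD, n = 4 each; adjusted p = 0.00527), with NBC males at 39.8 ± 13.53 CPM (SD, n = 3), and its adjusted p was 0.0781 in the GC-corrected fit. Egr4, a zinc finger factor, fell by 0.55 (adjusted p = 0.00197; GC-corrected 0.191). Nr4a3, of the same family as Nr4a1, rose by 0.47 (adjusted p = 0.0119), with 0.0631 in the GC-corrected fit and 0.0559 without sPIA female 3.

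Of 14 neurotrophins and related receptors 4 rose and 0 fell (6 had an unadjusted p under 0.05 in edgeR, and limma-voom and DESeq2 each called 4). Bdnf, the neurotrophin that supports synapses in the hippocampus, rose from 51.04 ± 4.04 to 67.9 ± 6.82 CPM (SD, n = 4 each; log2 change 0.41, adjusted p = 0.0116). Its GC-corrected change was 0.23 (adjusted p = 0.235) and it had an adjusted p of 0.057 without sPIA female 3. Creb1, a factor that activity switches on through cyclic AMP, rose by 0.50 (adjusted p = 0.00029), and its level was 82.0 ± 7.75 CPM in sPIA females (SD, n = 4) and 81.8 ± 7.72 CPM in NBC males (SD, n = 3). Its GC-corrected change was 0.23 (adjusted p = 0.0225). Igf1r, the IGF-1 receptor, rose by 0.48 (adjusted p = 0.00052). It was at 60.2 ± 5.16 CPM in NBC males (SD, n = 3), beside 47.35 ± 2.345 CPM in NBC and 65.9 ± 4.4 CPM in sPIA females (SD, n = 4 each).

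Potassium channel genes fell more often than they rose. Of 51 potassium channel subunits 13 fell and 3 rose (median -0.069), and in the GC-corrected fit 9 fell and 3 rose. Kcna1, a channel of axons, rose by 0.42 (adjusted p = 8.39e-05) and Kcnt2, a sodium-activated channel, by 0.71 (adjusted p = 0.000235), which was 0.40 in the GC-corrected fit (adjusted p = 0.0172). Kcnt1, the closest relative of Kcnt2, fell by 0.66 on the log2 scale (adjusted p = 0.0002) and Kcnk9, a leak channel, by 0.64 (adjusted p = 0.00123). Of 40 glutamate receptor and scaffold genes 6 rose and 6 fell, and in the GC-corrected fit 1 rose and 5 fell. The steady members all fell, namely Grm4, a presynaptic metabotropic receptor, by 0.95, Grin3a, an NMDA receptor subunit of immature synapses, by 0.55, and Grik3, a kainate receptor subunit, by 0.50 on the log2 scale. Of 38 axon guidance genes 11 rose and 3 fell (median 0.078), and in the GC-corrected fit 4 rose and 1 fell. Sema5a, a semaphorin, rose by 0.52, Epha4, an ephrin receptor, by 0.50, and Robo1, a Slit receptor, by 0.42, while Ntng1, a netrin of thalamic and cortical axons, fell by 0.64.

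Of 28 astrocyte genes 8 rose and 1 fell (median 0.086), and in the GC-corrected fit 5 rose and 0 fell. Sox9, a factor of astrocytes and neural stem cells (chromosome 11, 112782224 to 112787760, plus strand), was at 18.9, 15.4, 19.2 and 18.7 CPM in NBC and at 33.1, 30.7, 31.2 and 27.1 CPM in sPIA females (log2 change 0.76, SE 0.13, adjusted p = 0.000262). NBC males, at 29.8 ± 4.91 CPM (SD, n = 3), lay at the level of the sPIA females. Slc1a3, the astrocyte glutamate transporter GLAST, rose by 0.30 (adjusted p = 0.00411), from 932 ± 8.39 to 1148 ± 135.5 CPM (SD, n = 4 each). NBC males were at 1126 ± 65.2 CPM (SD, n = 3), again near the sPIA females. Of 33 genes of neurogenesis and proliferation 6 rose and 1 fell (median 0.278, and 0.202 in the GC-corrected fit). Nes, the intermediate filament nestin of stem cells and growing vessels, rose by 0.59, Sox11, a factor of young neurons, by 0.67, and Ccnd2, the cyclin D of granule cell precursors, by 0.42, and all were steady. In NBC males they averaged 30.04 ± 1.3, 70.4 ± 11.7 and 174 ± 22 CPM (SD, n = 3), beside 30.8 ± 4.74, 71.8 ± 7.45 and 189 ± 11.9 CPM in sPIA females (SD, n = 4).

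Myelin genes and those of the ventricle lining had no call. Of 31 oligodendrocyte and myelin genes 0 passed by edgeR, limma-voom or DESeq2, and 4 had an unadjusted p under 0.05; summed levels spanned 4582 to 6344 CPM in NBC and 3017 to 9197 CPM in sPIA females. Of 21 choroid plexus genes 0 passed by any of these tools and 0 had an unadjusted p under 0.05. Of 21 ependymal cilia genes 0 passed by any of them and 1 had an unadjusted p under 0.05, with a median log2 change of 0.404. Of 31 microglial and complement genes 4 rose and 0 fell, beside 8.12% higher and 7.86% lower over all genes (median log2 change 0.132; 5 had an unadjusted p under 0.05; limma-voom called 2 and DESeq2 called 3). Ctss, a lysosomal protease of microglia, was at 25.2 to 27.4 CPM in NBC and at 56.8, 35.5, 34.1 and 28.2 CPM in sPIA females. Its log2 change was 0.54 (adjusted p = 0.0173), with 0.0502 without NBC female 2 and 0.0844 without sPIA female 1, the highest library. In the fit of only the 8 libraries the adjusted p of Ctss was 0.0787. Of 25 MHC class I and interferon genes 2 rose and 0 fell, near the same shares over all genes, and 0 passed in the GC-corrected fit. In the first fit the median log2 change was 0.163 and 3 had an unadjusted p under 0.05, while limma-voom called 2 and DESeq2 called 1. B2m, the light chain of MHC class I, rose by 0.38 (adjusted p = 0.0176), and its adjusted p was 0.126 in the GC-corrected fit, 0.0672 without NBC female 4 and 0.0645 without sPIA female 1.

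**Figure D5:**
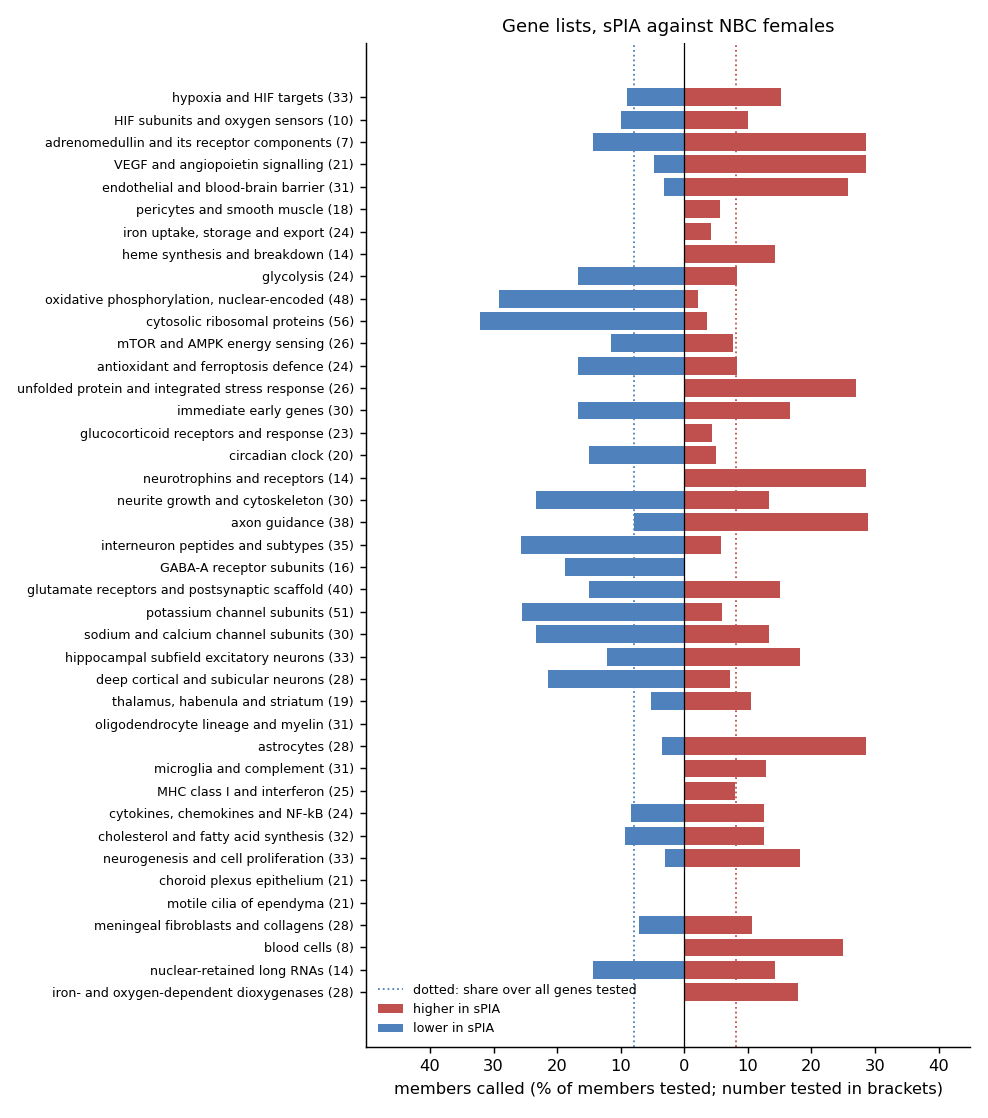
Share of the measured members of each gene list (number in brackets) called higher (red, right) or lower (blue, left) in sPIA against NBC females, in % of members; dotted lines mark the 8.12% higher and 7.86% lower over all genes tested. Ribosomal and oxidative phosphorylation genes have the longest bars to the left, and the oligodendrocyte, choroid plexus and cilia lists have none.

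Among the largest steady rises were genes outside these lists or of uncertain identity. Capn3, a calcium-dependent protease, rose from 5.88 ± 0.722 to 11.4 ± 3.79 CPM (SD, n = 4 each; log2 change 0.95, adjusted p = 0.00172). Acer2, a ceramidase of the Golgi, rose from 6.91 ± 1.35 to 13.46 ± 4.07 CPM (SD, n = 4 each; log2 change 0.96, adjusted p = 0.0104), while mPIA females averaged 13.4 ± 3.24 CPM (SD, n = 4) and NBC males 5.87 ± 1.94 CPM (SD, n = 3). Between mPIA and NBC females its log2 change of 0.96 did not pass (adjusted p = 1). Ifi203, an interferon-inducible gene of a repeated cluster, had a log2 change of 1.17, the non-coding Gt(ROSA)26Sor transcript 0.89 and Mir3064, whose row counts reads of its host transcript, 0.98. Aldoart1, Rpl23a and Hmgb1 had log2 changes of 1.53, 1.06 and 0.95. Aldoart1 is a retrocopy of the aldolase gene Aldoa, and Rpl23a and Hmgb1 have processed copies, so their counts are uncertain. For Aldoart1 and Rpl23a, NBC males averaged 5.31 ± 0.537 and 13.3 ± 1.89 CPM (SD, n = 3), beside 5.46 ± 0.653 and 13.3 ± 2.5 CPM in sPIA females (SD, n = 4). For Hmgb1, NBC males averaged 19.45 ± 4.6 CPM (SD, n = 3), beside 21.6 ± 4.01 CPM in sPIA females (SD, n = 4).

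The male comparison shares no library with the female one and has P codes in both groups, but its S numbers differ between the groups. Of the 2472 genes called in females, 9 were also called in sPIA males with the same sign and 1 with the opposite sign, out of 30 male calls. The sign of the change was the same in males for 71.1% of the female calls, and for 58.5% of all genes tested. Kdr and Cxcl12 were among the 9, with male log2 changes of 0.45 (adjusted p = 0.0194) and 0.76 (adjusted p = 0.0111). Others were Tmem100, a membrane protein of endothelial cells, which rose by 0.61 in females (adjusted p = 0.000742) and 0.85 in males (adjusted p = 0.00169), and Ablim1, an actin-binding protein, which rose by 0.24 in females (adjusted p = 0.00873) and 0.42 in males (adjusted p = 0.00397). Slc5a5, the sodium-iodide symporter, fell from 30.7 ± 2.8 to 15.54 ± 4.88 CPM in females (SD, n = 4 each) and from 23.1 ± 1.15 (SD, n = 3) to 12.7 ± 2.61 CPM (SD, n = 4) in males. Adm had a male log2 change of 0.62 (adjusted p = 0.284) and Vegfa one of 0.40 (adjusted p = 0.081), and neither passed in males. Without NBC male 4 the male comparison had 4 calls (0.0258%), of which 3 were also called in females with the same sign. Kdr, Cxcl12 and Slc5a5 then lost the male call (adjusted p = 0.0806, 0.0806 and 0.108). Tmem100 and Ablim1 kept it (adjusted p = 0.0191 and 0.0268). The male comparison had 238 calls without NBC male 2 and 53 without NBC male 3. It had 48 without sPIA male 1 and 18 without sPIA male 4.

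Whether the effect of severe anemia differed between the sexes was tested by an interaction in the same fit, and 147 genes (0.95%) passed. This count rests on single libraries. It was 5 without NBC female 1, 17 without sPIA male 4, 30 without sPIA female 3, 53 without NBC male 4, 73 without NBC female 3, 302 without sPIA male 1 and 342 without NBC male 2. The 5 genes left without NBC female 1 all had differences above 0, and the 17 left without sPIA male 4 had 14 above and 3 below, where all libraries gave 93 above and 54 below. Of the 147 genes, 133 were also called in sPIA against NBC females. Prph had the effect -2.11 in females and 0.28 in males, a difference of -2.39 (SE 0.55, adjusted p = 0.0477). Cdkl4, a kinase of the CDKL family, fell by 1.10 on the log2 scale in females and had a male change of 0.04, a difference of -1.13 (adjusted p = 0.0196). Prss12, the protease neurotrypsin, fell by 0.80 in females and had a male change of 0.45, a difference of -1.25 (adjusted p = 0.0225). Adamts1, a secreted protease that inhibits vessel growth, rose by 0.41 in females and fell by 0.59 in males, a difference of 1.01 (adjusted p = 0.00271) that passed with each library left out in turn. Sst fell by 1.22 in females with a male change of -0.41 (adjusted p = 0.234), and its difference of -0.82 passed (adjusted p = 0.0463). Without NBC female 1 the adjusted p of the difference was 0.108 for Prph, 0.0556 for Cdkl4, 0.0681 for Prss12 and 0.112 for Sst. For Adm the difference was 1.15 (adjusted p = 0.0841) and for Nxph3 -3.19 (adjusted p = 0.0707), and neither passed. The female side of each of these differences spans the code series and the male side does not, while the S numbers differ between the groups on both sides.

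Set directly beside NBC males, with the same code letter but other S numbers and the other sex, sPIA females differed in 14 genes (0.0905%). The count was 10 without NBC male 4 and 100 by DESeq2. Those named in this paragraph beside Sst were chosen after their values had been seen. Sst was at 128 ± 30.3 CPM in NBC males (SD, n = 3) and 74.8 ± 13.9 CPM in sPIA females (SD, n = 4), a difference of -0.77 on the log2 scale (SE 0.14, adjusted p = 0.0216). Nrn1, the growth factor neuritin, was higher in sPIA females than in NBC males by 0.39 (adjusted p = 0.0202) and than in NBC females by 0.46 (adjusted p = 5.7e-05). Fosl2, Kirrel3, an adhesion molecule of synapses, and Igsf1, a membrane protein of the immunoglobulin family, were lower than in NBC males by log2 changes of -0.51, -0.50 and -0.66 (adjusted p = 0.0181, 0.0216 and 0.0216). Against NBC females their log2 changes were -0.35, -0.37 and -0.53, and that of Kirrel3 had an adjusted p of 0.0525 in the GC-corrected fit. Igsf1 lies on the X chromosome, and most of the genes that passed and are not named here lie on the sex chromosomes.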

How the data were processed

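Hippocampal RNA of mouse pups was sequenced, and the authors deposited a table of raw read counts per gene for 23 libraries, with 24421 rows, of which 23350 (95.6%) carry a GENCODE M21 symbol and 27 have names that a spreadsheet turned into dates. Per the submitters' processing notes, the tools included FastQC, TopHat2 2.0.13, Subread and edgeR, with build mm10. Which annotation was counted, whether strand was used and how multi-mapping reads were handled is not stated by the labels or notes. All columns matched a sample, and groups came from the labels.

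Counts were fitted in R 4.3.3 with edgeR 4.0.16 (TMM scaling, a mean per group for all 23 libraries, robust quasi-likelihood test, filterByExpr with a minimum count of 10 and a minimum total of 15), and p-values were adjusted by Benjamini-Hochberg over all 15475 genes tested, with a threshold of 0.05. CPM values use TMM library sizes. Every adjusted p in the text is from this test unless limma-voom (limma 3.58.1) or DESeq2 1.42.0 is named. Fitted log2 changes come from the edgeR fit with its prior count left at the default. A prior count of 2 was used for log2 CPM values, such as those behind the GC and length trends. The GC-corrected fit removed a spline (4 degrees of freedom) on GC content and length of the longest GENCODE transcript, known for 14882 genes (96.2%). Simulated counts covered the 15475 genes of the sPIA and NBC female comparison, with 100 genes changed at each size. On these counts the fit called 69% of those changed 1.5-fold and 82% of those changed 2-fold, and 3.21% of its calls were false. The share of false calls among the genes called in the measured libraries was not tested. Replicates differed by more than counting error (their chi-square, divided by its degrees of freedom, was 5.2 to 22.6), and none was merged.

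The gene lists and the genes described were chosen with earlier results of these data known. Genes were named by rule if they were called, had an average log2 CPM of at least 1 and were among the 12 largest steady changes or the 6 largest changes of all in each direction, the 4 smallest p-values of a list or the 8 largest sex differences in each direction. Adm, Vegfa, Kdr, Cxcl12, Tfrc, Slc2a1, Bdnf and Ttr were named in every case, and of the defining cell markers only some were named. Bnip3, Ndrg1, Angpt2, Apln, Aplnr, Cox7c, Rpl19, Hspa5, Crhbp, Tac1, Cpne4, Fosl2, Nr4a3, Kcnk9, Epha4, Ntng1, Nrn1, Kirrel3, Igsf1, Epas1, Egln2, Pcbp1, Ftl1, Tmem100, Slc5a5 and Ablim1 fall outside this rule and were chosen after their values were seen. Promoter windows are RefSeq sequences of GRCm38.p6. Alternatives covered scaling, filters, the libraries in the fit, each library left out, a block for the replicate number and the 2 other tools. Figures were drawn with matplotlib 3.10.9. The mPIA males were in the fit and in no comparison.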

Additional observations from a re-analysis of the deposited data

Results flagged for a closer look

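In 18 of 256 groups of 4 libraries, 1 library lay apart from its group by Dixon's criterion, which chance meets in about 1 in 20 groups. Ttr had 2025 CPM in NBC female 2 and 1324 CPM in sPIA female 2. NBC female 2 was also low for Sox9 at 15.4 CPM and Tle4 at 53.9 CPM and high for Ccnd2 at 152 CPM. NBC female 4 was high for Tfrc at 312 CPM and stood apart for Epha4 at 426 CPM and Igf1r at 43.9 CPM, and NBC female 3 for Rps12 at 47.9 CPM. Among sPIA females, library 1 stood apart for Cox5b at 139 CPM, Tac1 at 5.14 CPM and Kcnk9 at 7.85 CPM, and library 2 for Ramp3 at 2.08 CPM, Lamp5 at 19.5 CPM and Fosl2 at 60.4 CPM. Library 3 stood apart for Bnip3 at 117 CPM and Egr4 at 14.84 CPM, and library 4 for Ecm2 at 7.13 CPM.

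For 22 of the named genes the log2 effect of severe anemia differed between the sexes by edgeR's interaction test at an adjusted p under 0.05, given here as female minus male. The difference was above 0 for Canx (0.38), Hsp90b1 (0.46), Pdia4 (0.57), Kcna1 (0.40), Sema5a (0.57), Creb1 (0.49), Sox9 (0.88), Ccnd2 (0.46), Kdm7a (0.65), Aldoart1 (1.64) and Adamts1 (1.01). It was below 0 for Rps12 (-0.65), Prph (-2.39), Adamts16 (-1.60), Fezf2 (-0.94), Sst (-0.82), Kcnt1 (-0.77), Prss12 (-1.25) and Cdkl4 (-1.13). For Cd82, a tetraspanin, it was 1.23, from log2 changes of 0.17 in females and -1.06 in males. For Ecm2, a matrix protein, it was 1.47, from 0.82 and -0.65. For Col24a1, a fibrillar collagen, it was -3.22, from -1.46 and 1.76. Without NBC female 1 only 5 differences passed among all genes, all above 0; of those named here only Adamts1 then passed (adjusted p = 0.00588). The female libraries differ in code series between the groups and the male libraries do not, while the S numbers differ in both sexes. The part of the code series and of the S numbers in these differences was not tested.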

How the results depend on the processing

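The 2472 calls between sPIA and NBC females became 2451 with RLE scaling, 2492 with upper-quartile scaling, 2196 of 20114 genes without the low-count filter, 2588 of 13147 genes above a mean log2 CPM of 1, 2690 from the 8 libraries alone, 3598 from the 12 females, 2351 by limma-voom and 2870 by DESeq2. Without the NBC males in the fit, a setting chosen after seeing the data, there were 2824. The count was 1174 in the GC-corrected fit, 1459 without the library highest in Ttr of each group, 171 when tested against a 1.2-fold change and 1421 to 2692 with a library left out. The sex difference gave 147 calls, 87 in the GC-corrected fit, 463 by DESeq2 and 5 to 342 with a library left out. The male comparison gave 30, 46, 155 and 4 to 238 in that order. In the GC-corrected fit, sPIA against mPIA females had 1431 calls and NBC females against NBC males 643, the latter with 414 without NBC male 4. Between mPIA and NBC females limma-voom called 0 (54 genes had an unadjusted p under 0.05), where edgeR and DESeq2 called 1, and between sPIA females and NBC males DESeq2 called 100. The GC difference between the groups ranged from -0.654 to -0.495 with a library left out.

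The cause of these shifts was not tested. A replicate block gave 2630 calls, and 1023 with the GC correction. Same-numbered NBC and sPIA libraries had correlations of their deviations of 0.023, 0.093, -0.006 and 0.045, so the numbers were read as names. With the block, Bnip3 (adjusted p = 0.0526), Apln (0.248), Alas2 (0.0839), Hspa5 (0.0897), Nts (0.0756), Rxfp1 (0.217) and Tshz2 (0.17) lost their calls and Col24a1 (0.0225) gained one.

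Of 114 named genes called in females, 0 changed sign under any alternative, and of their values 2285 kept the call and 223 lost it. Genes with no call changed sign. Cldn5 had log2 changes of 0.219 in the GC-corrected fit, 0.218 with the block added and -0.081 to 0.036 with a library left out. Gad2 had -0.141, -0.139 and -0.022 to 0.055 in that order. Ttr had 0.41 without the library highest in Ttr of each group and -3.552 to 3.421 with a library left out. Gad1 had 0.001 without the highest Ttr libraries and -0.06 to 0.033 with a library left out, and Slc17a7 -0.035 to 0.073. With totals of 15.2 to 21.5 M counts, genes near or below 1 CPM rest on the fewest reads among those named. Such are Adm in the controls and, in sPIA females, Klhl1 at 0.159 to 1.69 CPM and Cplx3 at 0.87 to 1.52 CPM. Ramp3 at 1.01 to 2.08 CPM and Col24a1 at 0.795 to 1.91 CPM were also low in sPIA females.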
